A study of Mus musculus with 6 samples.

Results

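Mucins are large glycoproteins that cover and lubricate epithelia, and trefoil factors are small secreted peptides that are stored and released with them. The mucin and trefoil factor genes examined here were the 10 listed genes Muc1, Muc4, Muc13, Muc16, Muc20, Muc5ac, Muc6, Muc2, Tff2 and Tff3, taken by gene name from a count table of 21959 genes. MPC is a mouse gastric adenocarcinoma cell line with the genotype CDH1-/-;Trp53-/-, and MPC-PTX is its derivative with the same genotype that received over 30 cycles of paclitaxel (PTX). The study's text calls the same lines MTC and MTC-R. Poly-A RNA of each line was sequenced as 3 libraries, labelled control for MPC and PTX treated for MPC-PTX, and the comparison asked how the resistant line differed from its parent.

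The cells came from gastric organoids in which a tamoxifen-inducible Cre driven by Mist1 had deleted both genes, grown as a subcutaneous tumour in nude mice, and each line is a single clone. A difference between MPC and MPC-PTX therefore cannot be told apart from a difference between the clones. All 6 libraries carry 1 batch number in the labels. Nothing says that the replicates of a line came from separate cultures, so the p-values measure the spread between these libraries, which may be technical. The totals were 19349425, 19448643 and 21047477 counts in MPC and 23148182, 21907322 and 16574580 in MPC-PTX. Libraries of MPC varied more than those of MPC-PTX, with a biological coefficient of variation of 17.9% against 3.01%, and MPC replicate 3 stood apart: the value was 10.5% without it, 22.9% without MPC replicate 2 and 16.8% without MPC replicate 1. Cdh1 had 2217 to 3068 counts and Trp53 63 to 142 counts in a library, whole-gene counts that do not show whether the deleted exons are present.

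Membrane mucins span the plasma membrane with a short tail inside the cell and a long sugar-bearing domain outside, and Muc1, Muc4 and Muc16 are widely used as carcinoma antigens. Gel-forming mucins are secreted and build the mucus layer. In the stomach Muc5ac marks the surface (foveolar) mucous cells together with Tff1, Muc6 marks the mucous neck and gland cells together with Tff2, and Muc2 with Tff3 marks the goblet cells of the intestine, which appear in the stomach in intestinal metaplasia.

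Positions are those of GENCODE M21 on GRCm38. The build and annotation behind the deposited counts are not given in the sources used here, so 8 members were placed by Ensembl identifier and Muc4 and Muc6 by symbol. Muc1 lies on chromosome 3 at 89229057 to 89233381 on the plus strand. Muc4 lies on chromosome 16 at 32735886 to 32782391 on the plus strand, and Muc20 at 32777419 to 32797435 on the minus strand, so that the ends of these genes overlap tail to tail. The overlap covered 4973 bp of gene and 627 bp of exon, 15.6% of the exon bases of Muc20 and 5.33% of those of Muc4. Whether the counting used strand is not stated, and reads in the overlap cannot be assigned to either gene with certainty. Muc13 also lies on chromosome 16 (33794037 to 33819934), and Muc16 lies on chromosome 9 (18495455 to 18674530). The gel-forming mucins stand next to each other on chromosome 7, Muc6 at 141633456 to 141655319, Muc2 at 141690340 to 141754693 and Muc5ac at 141788972 to 141819231. The trefoil genes are neighbours on chromosome 17, Tff3 at 31125306 to 31129646 and Tff2 at 31141049 to 31144282.

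RefSeq promoter windows on GRCm38.p6, 250 bases before and 50 bases after the start, were found for 7 members. The windows of Muc1, Muc4, Muc20 and Muc2 are shown in the direction of transcription. They were chosen because the first 3 are the members that changed and Muc2 is the tested member whose replicates varied most relative to its mean. Capitals mark matches on either strand. The GC box was searched as GGGCGG and the TATA box as TATAAA. The letters bound by GATA factors were searched as AGATAA and those bound by FOX factors as TGTTTNC. The HNF4 letters were CAAAGTNCA, the CDX letters were TTTATG and the KLF letters were GGGTGTG.

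Muc1, chr3:89228806-89229105, plus strand: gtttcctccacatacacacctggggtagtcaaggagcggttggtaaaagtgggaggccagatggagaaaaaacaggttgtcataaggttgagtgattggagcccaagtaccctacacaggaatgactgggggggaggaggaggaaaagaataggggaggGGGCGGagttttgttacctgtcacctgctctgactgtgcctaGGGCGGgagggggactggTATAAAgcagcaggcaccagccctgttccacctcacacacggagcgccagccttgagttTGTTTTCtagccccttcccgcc

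Muc4, chr16:32735636-32735935, plus strand: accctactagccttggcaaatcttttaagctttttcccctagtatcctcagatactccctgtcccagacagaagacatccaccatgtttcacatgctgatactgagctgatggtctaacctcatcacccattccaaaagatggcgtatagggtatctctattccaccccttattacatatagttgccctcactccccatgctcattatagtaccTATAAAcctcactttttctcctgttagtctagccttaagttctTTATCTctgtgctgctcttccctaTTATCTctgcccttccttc

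Muc20, chr16:32797386-32797685, minus strand: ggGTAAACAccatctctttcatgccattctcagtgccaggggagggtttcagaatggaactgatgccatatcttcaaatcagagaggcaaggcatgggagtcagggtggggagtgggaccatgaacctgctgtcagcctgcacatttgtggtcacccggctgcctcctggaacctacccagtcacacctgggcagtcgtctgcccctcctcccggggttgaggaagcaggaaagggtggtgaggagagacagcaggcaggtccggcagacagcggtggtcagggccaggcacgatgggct

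Muc2, chr7:141690090-141690389, plus strand: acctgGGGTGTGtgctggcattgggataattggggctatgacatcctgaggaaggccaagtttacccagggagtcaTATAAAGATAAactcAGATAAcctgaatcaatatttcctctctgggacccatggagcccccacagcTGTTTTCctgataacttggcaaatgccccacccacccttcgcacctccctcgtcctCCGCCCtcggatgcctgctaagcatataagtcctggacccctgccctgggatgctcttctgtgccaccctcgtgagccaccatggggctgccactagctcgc

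The window of Muc1 held 2 GC boxes, at -91 and -49 from the start, a TATA box at -31 and a FOX match at 29. That of Muc4 held a TATA box at -36 and GATA matches at 8 and 32, downstream of the start. Muc20 had neither a GC box nor a TATA box in its window, and its only match was the FOX letters at -248. Muc2 had a TATA match at -174 that shares a base with a GATA match at -169, a further GATA match at -159, a FOX match at -108, a KLF match at -245 and a GC box at -52. Among the 32851 promoter windows of the table, 35.7% held the GC box, 13.6% the TATA box, 11.2% the GATA letters, 20.5% the FOX letters, 1.41% the HNF4 letters, 11.9% the CDX letters and 7.95% the KLF letters. These matches describe the letters of the windows and do not show that a factor bound there.

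Muc1 was by far the most abundant member in both lines, Muc4 came next, and the secreted mucins and trefoil factors were rare or at 0. Of the 10 members, 5 passed the filter on low counts and were tested, and of these Muc1, Muc4 and Muc20 were lower in MPC-PTX, Muc16 and Muc2 did not pass the test and none was higher. The drop was small for Muc1 and largest for Muc20. Across the 11795 genes tested, 15.6% were lower in MPC-PTX and 14.1% were higher, counting genes with a Benjamini-Hochberg adjusted p under 0.05 by edgeR (quasi-likelihood). No member was higher at an unadjusted p below 0.05 or by DESeq2 either. The median log2 fold change was -0.37 over the 5 tested members and 0.04 over all genes tested. Levels are given as CPM, the counts of a gene scaled to a common depth by TMM, and log2 fold changes are MPC-PTX over MPC.

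**Figure D1:**
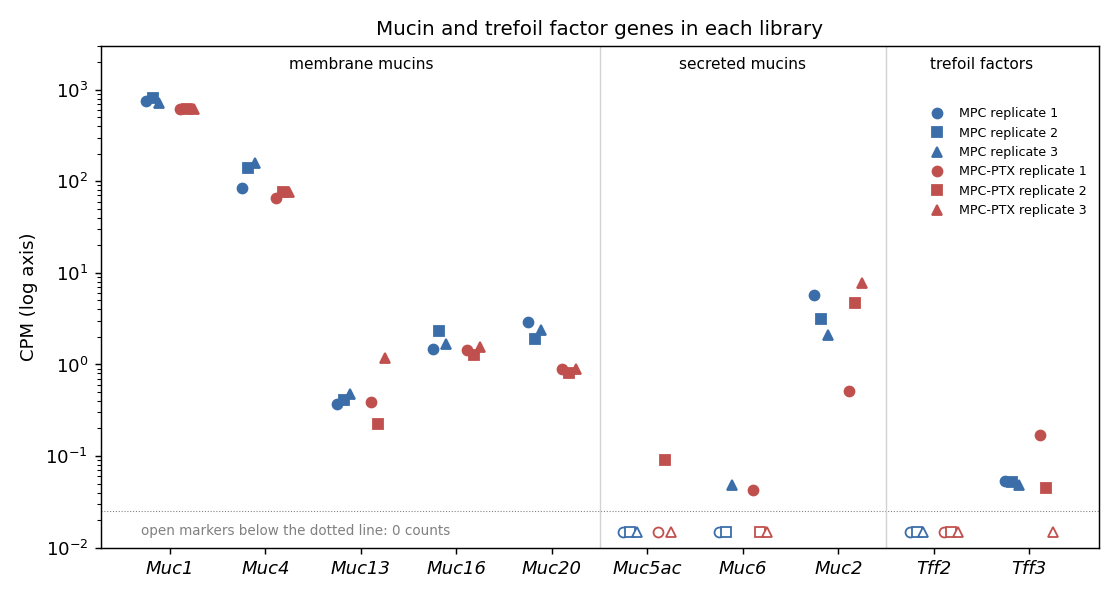
CPM on a log axis of the 10 members in each of the 3 MPC (blue) and 3 MPC-PTX (red) libraries, a marker shape for each replicate, with libraries at 0 counts as open markers below the dotted line. Muc1, Muc4 and Muc20 are lower in every MPC-PTX library than in any MPC library, while Muc2 spans 0.513 to 7.66 CPM within MPC-PTX.

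Muc1 signals through its cytoplasmic tail, which binds beta-catenin and Src-family kinases. It had 14146, 15545 and 14763 counts in MPC and 14353, 13658 and 10426 in MPC-PTX. In CPM these were 752, 801 and 709 against 613, 616 and 619, so that every MPC-PTX library was below every MPC library. The mean was 754 ± 46.1 CPM (SD, n = 3) in MPC and 616 ± 3.17 CPM (SD, n = 3) in MPC-PTX, a log2 fold change of -0.29 (SE 0.06, edgeR adjusted p = 0.0136). The call is close to the threshold: the edgeR adjusted p was 0.0567 without MPC replicate 2 and 0.0667 to 0.0726 when any MPC-PTX library was left out.

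Muc4, a membrane mucin with EGF-like domains that binds ErbB2, had 1600, 2720 and 3272 counts in MPC and 1546, 1676 and 1291 in MPC-PTX. Its CPM were 85.0, 140 and 157 in MPC and 66.0, 75.6 and 76.7 in MPC-PTX. The lines did not overlap, although MPC replicate 1 lay close to the MPC-PTX libraries. The mean was 127 ± 37.8 CPM in MPC and 72.8 ± 5.85 CPM in MPC-PTX (SD over 3 libraries each). The log2 fold change was -0.81 (SE 0.22, edgeR adjusted p = 0.0319). With any library other than MPC replicate 1 left out, the edgeR adjusted p lay between 0.0691 and 0.112; without MPC replicate 1 the call held, at a log2 fold change of -1.03.

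Muc20, a small membrane mucin known to bind the receptor Met, showed the largest drop. It had 55, 37 and 50 counts in MPC and 21, 18 and 15 in MPC-PTX, or 2.92, 1.91 and 2.40 CPM against 0.897, 0.812 and 0.891. All MPC-PTX libraries were below all MPC libraries, and those of MPC-PTX lay close together. The mean was 2.41 ± 0.507 CPM in MPC and 0.867 ± 0.0478 CPM in MPC-PTX (SD over 3 libraries each). The log2 fold change was -1.47 (SE 0.24, edgeR adjusted p = 0.00403). The call held with any library left out, at log2 fold changes of -1.61 to -1.31. Muc4 and Muc20 share 627 bp of exon, and Muc4 had 29.1 to 73.5 counts for each count of Muc20 in MPC and 73.6 to 93.1 in MPC-PTX. The part of reads from the overlap in the values of Muc20 was not tested.

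Only Muc20 also had a log2 fold change below -1, as did 4.20% of the genes tested at an adjusted p below 0.05. The rule in the study's methods, an unadjusted p below 0.05 with the same fold limit, was put on the edgeR p-values. Muc20 was again the only member called lower, beside 4.34% of all genes tested. The study used DESeq p-values, so its own count of lower genes is not the one given here. For 22.7% of the genes tested, every MPC-PTX library was below every MPC library, as was the case for 3 of the 5 tested members. Without MPC replicate 3, the library that stood apart, Muc1 and Muc20 were called lower, with log2 fold changes of -0.39 and -1.52, and Muc4 was not, at -0.69 and an edgeR adjusted p of 0.0691.

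Muc16, the giant mucin that carries the CA125 antigen and binds mesothelin, was low. It had 28, 45 and 35 counts in MPC and 34, 28 and 26 in MPC-PTX, or 1.49, 2.32 and 1.68 against 1.45, 1.26 and 1.54 CPM. The lines overlapped, and the log2 fold change of -0.37 (SE 0.24) did not pass the test (edgeR adjusted p = 0.285). With a correction for GC content and transcript length it was -0.91 (edgeR adjusted p = 0.0959).

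Muc13, a membrane mucin of the intestinal and gastric epithelium, was removed by the filter. It had 7, 8 and 10 counts in MPC and 9, 5 and 20 in MPC-PTX, where replicate 3 alone was above the range of MPC. The ratio of the summed counts per depth, MPC-PTX over MPC, was 1.29 with a 95% Clopper-Pearson interval of 0.745 to 2.25. This interval, like the others for rare genes and the limits for counts of 0, reflects counting error alone. Reads were not tagged with molecular identifiers and need not be independent molecules.

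**Figure D2:**
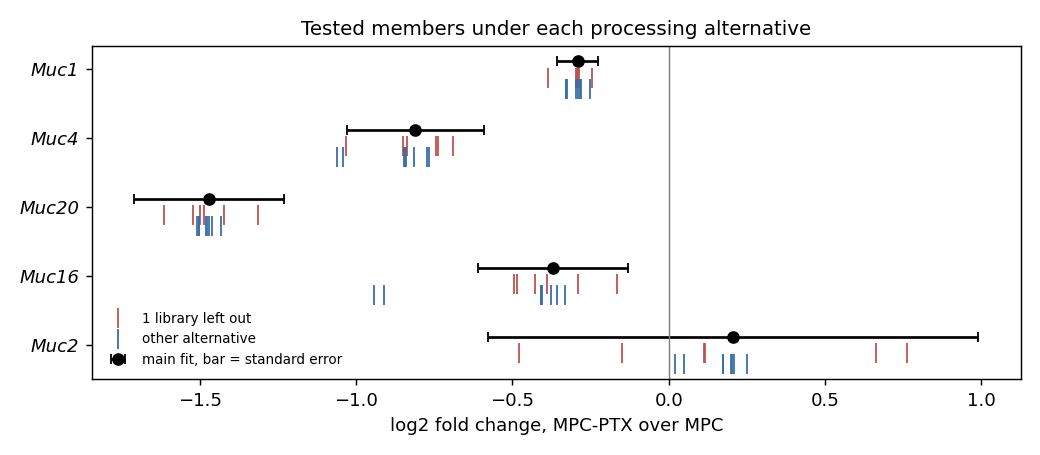
Log2 fold change (MPC-PTX over MPC) of the 5 tested members, with the main value and its standard error in black, fits without a library in red and other alternatives in blue. Muc20 stays between -1.61 and -1.31 with any library left out, and Muc2 ranges from -0.48 to 0.76.

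Muc2 was the only secreted mucin with more than 2 counts in any library. It had 107, 61 and 44 counts in MPC and 12, 105 and 129 in MPC-PTX, or 5.68, 3.14 and 2.11 against 0.513, 4.73 and 7.66 CPM. MPC-PTX replicate 1 was the lowest of all 6 libraries and MPC-PTX replicate 3 the highest, so the spread within MPC-PTX enclosed every MPC library. The mean was 3.65 ± 1.84 CPM in MPC and 4.30 ± 3.60 CPM in MPC-PTX (SD, n = 3 each), and the log2 fold change of 0.21 (SE 0.78) did not pass the test (edgeR adjusted p = 0.863). Its sign turned to -0.15 without MPC replicate 3 and to -0.48 without MPC-PTX replicate 3. Dmbt1, a mucus glycoprotein looked up after its values were seen, had 30, 21 and 30 counts in MPC and 9, 24 and 62 in MPC-PTX. Its MPC-PTX libraries were in the same order as those of Muc2, but its MPC libraries were not. An order of 3 libraries in a gene looked up afterwards does not show that the genes vary together.

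Muc5ac, the gel-forming mucin of the gastric surface, had 0 counts in every MPC library and 0, 2 and 0 in MPC-PTX. A count of 0 over the 3 MPC libraries allows up to 3 counts, or 0.0508 CPM. Muc6, the gel-forming mucin of the gastric glands, had 0, 0 and 1 counts in MPC and 1, 0 and 0 in MPC-PTX. A difference between the lines was not detectable at this depth for either gene.

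Tff2, the trefoil peptide of the mucous neck cells, had 0 counts in all 6 libraries, which allows up to 0.0508 CPM in MPC and 0.0481 CPM in MPC-PTX. Tff3, the trefoil peptide of goblet cells, had 1 count in each MPC library and 4, 1 and 0 in MPC-PTX. The ratio of Tff3 over the lines was 1.58, with a 95% Clopper-Pearson interval of 0.307 to 10.1, so neither a rise nor a drop could be shown. Tff1, the other mammalian trefoil gene and no member here, also had 0 counts in every library.

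Muc1 took 81.2% to 89.8% of the counts of the 10 members in a library, Muc4 9.67% to 18.0% and the other 8 members 0.507% to 1.60%. The members together stood at 847 to 949 CPM in MPC and 683 to 707 CPM in MPC-PTX. There were 4.51 to 8.84 counts of Muc1 for each count of Muc4 in MPC and 8.08 to 9.28 in MPC-PTX, ranges that overlap through MPC replicate 1. In bulk RNA, fewer cells with a transcript and less of it per cell cannot be told apart.

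Levels between genes were compared as CPM per kb of exon. Muc1 led in both lines, at 321 ± 19.7 CPM per kb in MPC and 263 ± 1.35 in MPC-PTX (SD, n = 3 each), above 99.0% and 98.8% of the 11785 genes with a length. Muc4 followed at 10.8 ± 3.21 and 6.19 ± 0.498 CPM per kb, above 61.2% and 45.2% of those genes. In MPC, Muc20 (0.599 ± 0.126 CPM per kb) and Muc2 (0.512 ± 0.258) came next and did not differ beyond their spread. In MPC-PTX, Muc2 (0.604 ± 0.504), Muc20 (0.215 ± 0.0119) and Muc13 (0.197 ± 0.170) likewise did not differ beyond their spread. Muc16, whose counts were similar to those of Muc20, stood lower per kb because its exons span more bases, at 0.0694 CPM per kb in MPC and 0.0539 in MPC-PTX. Tff3 stood at 0.103 and 0.146 CPM per kb on 3 and 5 counts, a place that depends on the prior count: with a prior count of 1 it stood at 0.207 and 0.246, above Muc13 in MPC (0.156) and above Muc20 (0.227) and Muc13 (0.213) in MPC-PTX. Muc6 and Muc5ac were below 0.01, and Tff2 was at 0. The exon model of Muc2 in M21 is split into short transcripts, so that with the longest transcript as its length Muc2 stood at 1.25 and 1.47 CPM per kb.

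Of 15 further listed genes, the other mucins and the remaining trefoil factor, 12 were in the table and 5 were tested, of which 2 rose and 3 did not pass the test. Muc15, a membrane mucin, had 5, 7 and 5 counts in MPC and 37, 33 and 22 in MPC-PTX, a rise in the mean from 0.289 to 1.46 CPM and a log2 fold change of 2.32 (SE 0.29, edgeR adjusted p = 0.00124). It moved opposite to Muc1, Muc4 and Muc20. Mcam, the adhesion protein also called mucin 18 (CD146), rose by a log2 fold change of 0.63 (SE 0.09). Muc5b and Muc19, gel-forming mucins looked up after their values were seen, had 0 counts in all 6 libraries. Of the genes for folding and packaging mucins and for the mucus matrix, 11 were tested, 1 rose and 3 fell. The counts of both lists stand beside 14.1% higher and 15.6% lower over all genes tested. Cftr, the chloride and bicarbonate channel needed to unfold secreted mucus, rose from 21, 9 and 22 counts to 180, 152 and 130 (log2 fold change 3.07, SE 0.26), and Bcas1 fell, with a log2 fold change of -1.01.

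Of 18 tested enzymes that build the O-linked sugars of mucins, 4 rose and 7 fell, with a median log2 fold change of -0.03. Over all genes tested, 14.1% were higher and 15.6% lower, and this list was chosen with earlier results known. Gcnt4, a core branching enzyme, rose by 2.20 on the log2 scale and Fut1, an alpha-1,2 fucosyltransferase, by 1.49. Fut2, the secretor fucosyltransferase of the gastrointestinal tract, fell, with a log2 fold change of -1.40. Gcnt3, the branching enzyme of mucin-producing tissue, and St6galnac2, a sialyltransferase, also fell, with log2 fold changes of -1.11 and -1.98. Both the fucosyl and the branching enzymes held a gene that rose and a gene that fell. St6galnac2 has a pair of rows in the table under its symbol, of which only the one given was tested. Leaving out MPC replicate 3 brought the enzymes that rose to 7, and leaving out any MPC-PTX library brought those that fell to 4.

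Of 13 tested proteins reported to bind or cut the members, 1 rose, 7 fell and 5 did not pass the test. Across all genes tested, 15.6% were lower and 14.1% were higher, and this list was chosen with earlier results of these data known. Ackr3, an atypical chemokine receptor, rose from 328, 319 and 320 counts to 1165, 1051 and 815 (log2 fold change 1.56, SE 0.08). Lgals4, a galectin of the gut epithelium that binds mucin sugars, fell by 2.61 on the log2 scale. Some partners of the called members were looked up after their values were seen. All partners named below are on this list and already in the counts above. Erbb2, a partner of Muc4, had a log2 fold change of -0.28 (edgeR adjusted p = 0.0252), and Met, a partner of Muc20, had -0.03 (edgeR adjusted p = 0.913). Ctnnb1, which encodes beta-catenin, and Src had -0.20 and -0.39 (edgeR adjusted p = 0.0360 and 0.00533). Msln, the mesothelin bound by Muc16 and likewise looked up after its values were seen, fell by 0.67 on the log2 scale. Leaving out MPC replicate 3 brought the proteins of this list that rose to 4, and leaving out MPC replicate 2 or any MPC-PTX library brought those that fell to 4.

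Of 17 tested transcription factors of mucous and gut epithelium, 3 rose and 7 fell, with a median log2 fold change of -0.34. The shares over all genes tested were 14.1% higher and 15.6% lower, and this list too was chosen with earlier results known. Hnf4a, a master regulator of gut endoderm, went from 927, 1442 and 1524 counts to 24, 19 and 16, a log2 fold change of -6.11 (SE 0.23, edgeR adjusted p = 9.23e-06). Foxa3, Gata6 and Cdx2, further regulators of gut endoderm, had log2 fold changes of -3.09, -2.65 and -1.06. Elf3 and Foxq1, both expressed in glandular epithelium, had -0.80 and -0.65. Klf4, which is needed for goblet cell maturation, rose by 1.70 on the log2 scale, Sox2, a factor of gastric identity, by 0.45, and Bhlha15 by 1.68. Bhlha15 is Mist1, the gene whose promoter drove the Cre in the organoids of origin. Sox2 narrowly lost its call without MPC-PTX replicate 1 (edgeR adjusted p = 0.0505).

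**Figure D3:**
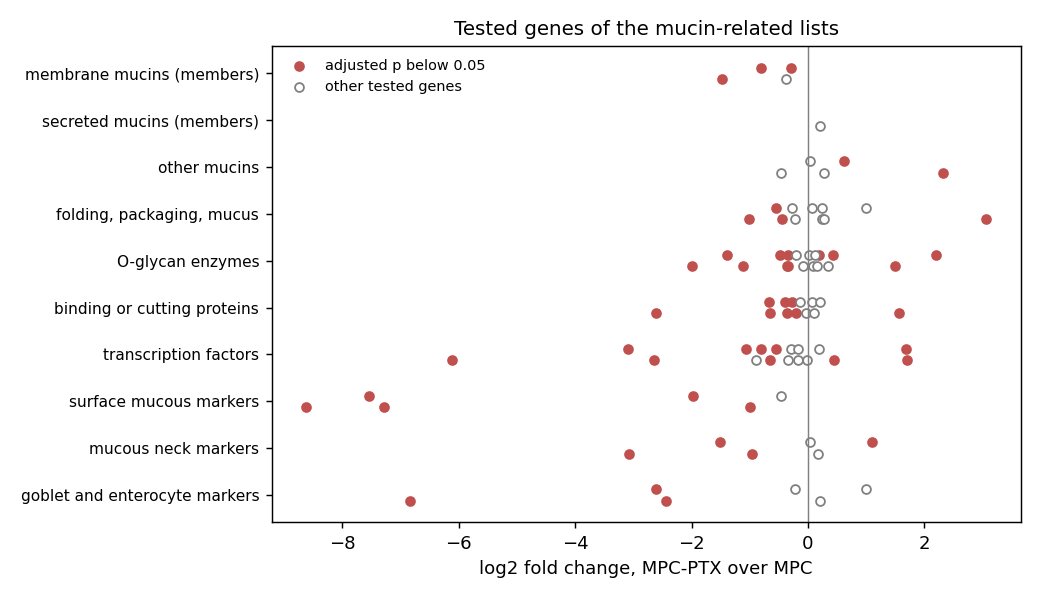
Log2 fold change (MPC-PTX over MPC) of every tested gene of 10 lists, a point per gene, filled red where the adjusted p was below 0.05. All 3 called members lie between -1.47 and -0.29, while surface mucous markers, transcription factors and enterocyte markers reach -8.62, -6.11 and -6.84.

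Several markers of gastric mucous cells were also lower in MPC-PTX. Of 12 markers of surface mucous cells examined, 6 were tested, of which 5 fell and 1 did not pass the test. Across all genes tested, 15.6% were lower. Like every list here, this one was chosen with earlier results of these data known, so its count is no independent support. Anxa10, an annexin of gastric epithelium, went from 1681, 2912 and 3059 counts to 10, 4 and 6 (log2 fold change -8.62, SE 0.35). Ctse, the gastric protease cathepsin E, went from 4387, 6009 and 5850 counts to 30, 29 and 32 (log2 fold change -7.54, SE 0.19). Vsig1, a junction protein of gastric epithelium, had 56, 60 and 88 counts in MPC and 1, 0 and 0 in MPC-PTX, and Psca, a surface antigen, fell by 1.98 on the log2 scale. The summed level of this list was 494 to 659 CPM in MPC and 47.2 to 48.8 in MPC-PTX, with Gkn1, Gkn2, Tff1 and Muc5ac, the secreted products that define these cells, at or near 0 in both lines.

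Of 6 tested markers of mucous neck cells and metaplasia, 1 rose and 3 fell, beside 14.1% and 15.6% of all genes tested. Gkn3, a gastrokine, and Clu, the secreted chaperone clusterin, fell, with log2 fold changes of -3.08 and -1.52. Aqp5, a water channel, rose by 1.10, a call lost without MPC replicate 2 or without any MPC-PTX library. The defining Muc6 and Tff2 were at or near 0, and 6 of 7 markers of chief and parietal cells had at most 10 counts in any library. Of 6 tested intestinal goblet and enterocyte markers, Muc2 among them, 3 fell and 3 did not pass the test. Vil1, the villin of the brush border, went from 668, 1038 and 930 counts to 11, 7 and 6 (log2 fold change -6.84, SE 0.24), and Cdh17, the liver-intestine cadherin, fell by 2.44. The part of these cell programmes in the values of Muc1, Muc4 and Muc20 was not tested.

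Of 9 tested markers of simple epithelium, 8 fell, among them the claudin Cldn4 (log2 fold change -1.13) and the keratin Krt8 (-1.02). Across all genes tested, 15.6% were lower, and this list too was chosen with earlier results of these data known. Its summed level was 9961 to 11480 CPM in MPC and 6112 to 6323 in MPC-PTX. Basal and squamous markers split, with 3 that rose and 3 that fell. Krt14, a basal keratin, went from 15, 4 and 9 counts to 690, 641 and 523 (log2 fold change 5.95, SE 0.27), and Trp63 and Krt6a rose by 1.81 and 1.67. Ivl and Sprr1a, proteins of the cornified envelope, fell, with log2 fold changes of -5.21 and -3.54. Of 2 tested fibroblast markers 1 fell. The 6 leukocyte markers were too low to test, with a summed level of at most 0.766 CPM in any library, and the 1 tested endothelial or mesothelial marker did not pass the test.

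Genes that start within 250 kb of the called members were examined for whether neighbours moved alike. Around Muc1, 27 genes were tested, of which 2 rose and 6 fell, with a median log2 fold change of -0.08. For comparison, here and around Muc4, 14.1% of all genes tested were higher and 15.6% were lower. Thbs3, a thrombospondin, rose by 0.77 and Adam15, a membrane metalloprotease, by 0.37. Pklr, the liver and red cell pyruvate kinase, was lower, with 37, 48 and 33 counts in MPC and 3, 0 and 2 in MPC-PTX. Fam189b had a log2 fold change of -1.20, and the ephrins Efna4 and Efna1 had -0.91 and -0.43. Pbxip1 and Cks1b had -0.44 and -0.36, all called lower, and the nearest start, that of Mtx1, had a log2 fold change of -0.16 and did not pass the test.

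Around Muc4, 6 genes were tested, and besides Muc20 only Tnk2, a non-receptor tyrosine kinase, was lower, with a log2 fold change of -0.37. Tfrc, the transferrin receptor (0.48), Fyttd1 (0.13), Rubcn (-0.22) and Lrch3 (-0.01) did not pass the test.

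**Figure D4:**
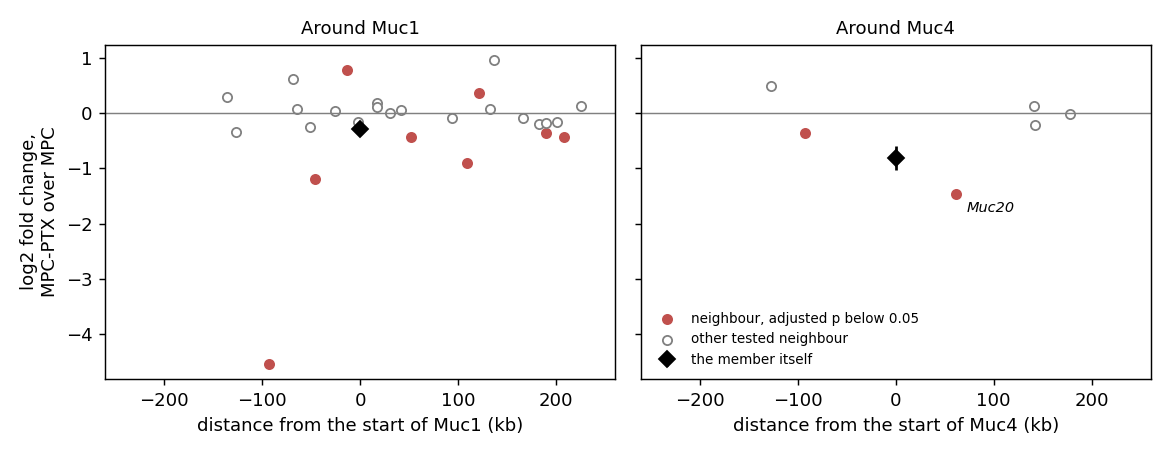
Log2 fold change (MPC-PTX over MPC) of tested genes against the distance of their start from that of Muc1 (left) and Muc4 (right), with the member as a black diamond with its standard error. Around Muc1, 6 of 27 neighbours are lower and 2 higher, beside 15.6% lower and 14.1% higher over all genes tested. Next to Muc4 the largest change is that of Muc20, at -1.47.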

How the data were processed

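Poly-A selected RNA of 3 MPC and 3 MPC-PTX libraries was sequenced. After read filtering with fastp 0.22.0 and mapping with HISAT2, the authors deposited raw read counts per gene, neither normalised nor pooled. The genome build, annotation, counting tool and use of strand are not given in the sources used here. Rows without a gene symbol (51, with 0.0241% of counts) have identifiers and stayed in the fit, but entered no list.

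TMM scaling and a low-count filter (filterByExpr, minimum count 10, grouped by line) left 11795 genes. They were fitted with robust glmQLFit and glmQLFTest of edgeR 4.0.16 in R 4.3.3, with Benjamini-Hochberg adjustment over all of them and 0.05 as the threshold. The standard error is the log2 fold change divided by the root of the F statistic. Libraries held 16574580 to 23148182 counts, so that 1 count was worth 0.0427 to 0.0594 CPM.

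Lists of mucin-related genes and markers, like the members, were chosen with earlier results of these data known. Text names every member, list genes with an adjusted p below 0.05 and a log2 fold change above 1 in size (at most 6 per list, with at least 10 counts in some library), every called gene among other mucins and transcription factors, and tested neighbours of called members. A gene that this rule would name is not reported here. Genes named otherwise are marked as looked up afterwards, or are markers that define a cell type and stood at or near 0, the deleted genes, or Tff1. Alternatives were DESeq2 1.42.0, its size factors, library size alone, no filter, at least 10 counts in every library, the replicate number as a block, a correction for GC content and length by loess (span 0.3) with and without the block, glmTreat, the study's call rule and each library left out. CPM per kb used the union of exons in GENCODE M21, with the longest transcript and a prior count of 1 as alternatives.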

Additional observations from a re-analysis of the deposited data

How the results depend on the processing

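Muc20 kept an adjusted p below 0.05 in 14 of 15 alternatives, Muc1 in 10 and Muc4 in 9, while Muc16 and Muc2 passed in 0. The 15 include a test against a log2 fold change of 1 (glmTreat), in which 0 members were called lower. Muc1 (-0.29) and Muc4 (-0.81) could not pass it, because their estimates are smaller than 1 in size. Muc20 (-1.47) could have passed and lost its call. The study's rule, put on the edgeR p-values, called 1 member lower. With a library left out, log2 fold changes ran from -0.39 to -0.25 for Muc1, from -1.03 to -0.69 for Muc4 and from -0.48 to 0.76 for Muc2. Muc2 reversed to -0.15 without MPC replicate 3 and to -0.48 without MPC-PTX replicate 3. The number of members lower ran from 1 to 3, and it was 1 without MPC replicate 2 or without any MPC-PTX library. These fits had fewer samples, and other causes were not tested. The GC content and length correction moved Muc4 to -1.06 (edgeR adjusted p = 4.03e-04). Replicate numbers are shared between the lines, but the same-number libraries did not all deviate together (r = 0.15, -0.02 and 0.17 over genes), so they were not taken as pairs. With the replicate block, Muc1 (-0.29), Muc4 (-0.77) and Muc20 (-1.46) stayed called lower, Muc16 (-0.36) and Muc2 (0.02) did not pass, so the block changed no member's call and moved no list count by over 1.5 times.

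Of 392 alternative list counts, 362 stayed within 1.5 times the main count and 30 did not. With at least 10 counts in every library, the genes tested were fewer. Of the list of other mucins only 1 gene rose, the adhesion protein Mcam (2 in the main fit). Further, 0 folding and packaging genes rose (1), 3 surface mucous markers fell (5), 0 chief and parietal markers rose (1) and 1 basal marker rose (3). With library size alone, 2 folding genes and 2 binding proteins rose (1 each). With the GC content and length correction, 2 folding genes and 2 mucous neck markers rose (1 each), and with the block added 3 folding genes, 2 binding proteins and 2 mucous neck markers did. With a library left out, counts of genes that rose ran from 1 to 2 for folding genes, from 2 to 7 for sugar enzymes, from 1 to 4 for binding proteins and from 0 to 2 for mucous neck markers. Counts of genes that fell ran from 4 to 8 for sugar enzymes, from 4 to 8 for binding proteins and from 0 to 1 for endothelial and mesothelial markers. Of 507 alternative values of 37 named list genes, 5 lost their call (4 of Aqp5, 1 of Sox2) and 502 kept direction and call. With the longest transcript as length, CPM per kb moved to 1.25 and 1.47 for Muc2, to 275 for Muc1 in MPC-PTX and to 0.236 for Muc20 in MPC-PTX, which a prior count of 1 moved to 0.227. That prior count also moved Tff3 in MPC to 0.207, Muc6 to 0.00715 in MPC and 0.00676 in MPC-PTX, Muc5ac in MPC to 0.00474 and Tff2 to 0.0872 and 0.0840, all from 3 counts or fewer, and it changed the place of Tff3 in the order. Depth limits Muc5ac, Muc6, Muc13, Tff2 and Tff3, which the filter removed. Without the filter, Muc13 (0.41, SE 0.61) and Tff3 (0.58, SE 1.14) did not pass the test, nor did Muc5ac and Muc6.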
